A study of Rattus norvegicus with 6 samples.

Results

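Superoxide dismutases, glutathione peroxidases and peroxiredoxins remove the reactive oxygen that leaks from respiration and oxidase reactions. Dismutases turn superoxide into hydrogen peroxide, and the peroxidases then reduce the peroxide with electrons from glutathione or thioredoxin. Liver is rich in these enzymes because its mitochondria and peroxisomes form much peroxide. The 10 genes described here are Sod1, Sod2 and Sod3, Gpx1 and Gpx3, and Prdx1, Prdx2, Prdx3, Prdx4 and Prdx6. They were taken by symbol from the 32623 genes of the deposited table, and each symbol matched 1 gene. All 10 passed the filter on low counts.

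Messenger RNA was measured by bulk RNA sequencing in 6 rat liver samples. In the GZM group (n = 3) the liver had been embolized with zinc sulfide microspheres, and in the GM group (n = 3), the control, with blank microspheres. Embolization, the blocking of feeding vessels, was thus common to both groups. The labels give no strain, age, sex or time after treatment, leave unsaid if tumour tissue was present, and number the biosamples of a group without naming animals. The p-values therefore measure the spread among these biosamples, which may be technical. The comparison asks how zinc sulfide in the microspheres altered transcript levels of these enzymes in embolized liver.

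Gene counts summed to between 13443115 and 16073943 in the GZM libraries and between 14552885 and 16604067 in the GM libraries. Composition differed strongly between the groups. A list of 16 hepatocyte markers took 12.4%, 12.6% and 12.0% of counts in GZM 1, 2 and 3, against 3.38%, 2.42% and 7.26% in GM 1, 2 and 3, and 15 of the 16 rose. All 10 genes of a cell division list fell. GM 3 stood nearest to the GZM libraries on both lists. Trimmed mean of M-values (TMM) factors, which align the bulk of genes between libraries, ran from 0.715 to 0.793 in GZM and from 1.17 to 1.43 in GM. Scaling to library totals instead moved the median log2 fold change of all tested genes to -0.92, against -0.09 with TMM factors. Levels below are TMM-scaled counts per 1e6 counts (CPM) unless said otherwise, and each log2 fold change is GZM over GM.

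On the TMM scale 5 of the 10 genes rose in GZM and none fell. The risers were Sod1, Gpx1, Prdx1, Prdx4 and Prdx6, and the other 5 did not pass (edgeR quasi-likelihood test, Benjamini-Hochberg adjusted p under 0.05 over 14298 tested genes). Among all tested genes 44% changed by the same test, 22.2% higher and 21.7% lower. On this scale with all 6 libraries, rises thus took a larger share here than over the whole table. CPM ranges of the groups did not overlap for 7 of the 10, 6 higher and 1 lower in GZM, against 58.1% of all tested genes, 28.4% higher and 29.7% lower. The median log2 fold change of the 10 genes was 0.70, against -0.09 over all tested genes. With library totals 1 of the 10 rose (Sod1) and 3 fell (Gpx3, Prdx2 and Prdx3), where 68.7% of all tested genes changed, 9.2% higher and 59.5% lower, and the median of the 10 was -0.13 against -0.92. Leaving out GM 1 or GZM 2 left 1 riser in place of 5, beside 2195 of 14494 tested genes and 2112 of 14843. In those fits, and with library totals, the share of risers was not clearly above that of all tested genes. Leaving out GZM 1 left 3 risers, beside 2701 of 14832 tested genes. Without GM 3 there were 6 risers and 1 gene lower, beside 3592 higher and 3432 lower of 14618. With the replicate number as a block 3 rose, beside 2676 of 14298, although the libraries of equal number did not deviate together.

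**Figure D1:**
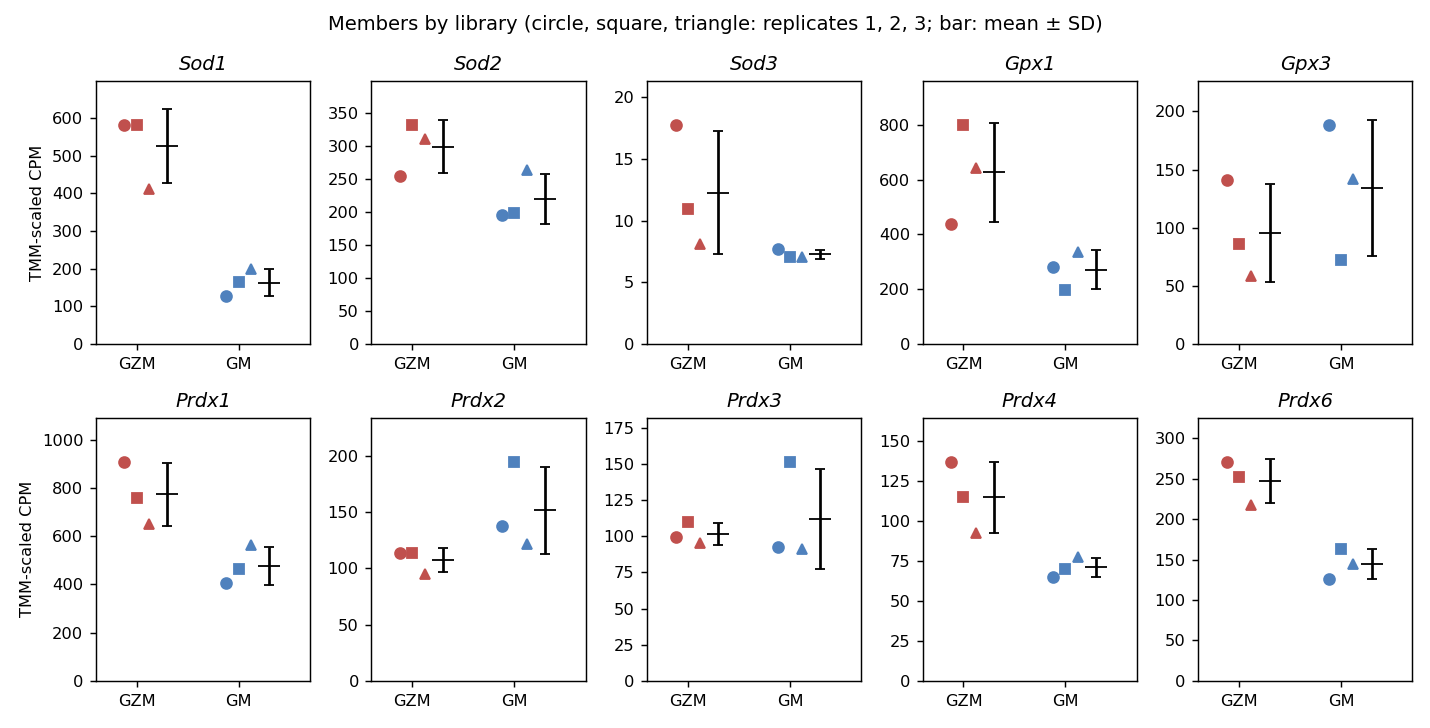
Level of each of the 10 genes in every library, in TMM-scaled CPM on axes that start at 0. Points are libraries, with replicate 1, 2 and 3 as circle, square and triangle, and the bar is the mean ± SD of the 3 libraries of a group. Sod1 shows the widest gap between the ranges of the groups, with 411 to 581 CPM in GZM and 127 to 198 CPM in GM.

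Sod1 (ENSRNOG00000002115) encodes the copper and zinc dismutase of the cytosol. Its level was 581, 580.3 and 411 CPM in GZM 1, 2 and 3, against 127, 165 and 198 CPM in GM 1, 2 and 3. Every GZM library lay above every GM library, and the highest GM library, GM 3, was still well below the lowest GZM library. Mean levels were 524 ± 98.0 CPM in GZM against 163 ± 35.8 CPM in GM (SD, n = 3 each). Sod1 rose 3.21-fold, or by 1.68 ± 0.25 (SE) on the log2 scale (edgeR adjusted p = 0.00288). With library totals the rise was 0.86 on the log2 scale (edgeR adjusted p = 0.00773). It passed in all 12 alternative settings, at log2 fold changes from 0.86 to 1.88. The table places Sod1 on the plus strand of chromosome 11, 30363280 to 30368862. In bulk tissue, more cells of a type and more RNA per cell cannot be told apart. The hepatocyte list, given as mean log2 CPM centred on its 6-library average, stood at 1.39, 1.40 and 1.11 in GZM 1, 2 and 3, against -1.53, -2.10 and -0.26 in GM 1, 2 and 3. On the same footing Sod1 stood at 1.01, 1.01 and 0.51 in GZM and at -1.18, -0.81 and -0.54 in GM. The part of hepatocyte content in the rise was not tested.

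Ccs, the chaperone that loads copper into Sod1, moved by a similar amount. It stood at 69.1, 70.1 and 55.8 CPM in GZM 1, 2 and 3, against 18.0, 20.8 and 26.7 CPM in GM 1, 2 and 3, with no overlap. It rose by 1.57 ± 0.19 (SE) on the log2 scale (edgeR adjusted p = 0.00226), or by 0.75 with library totals (edgeR adjusted p = 0.00502). Among all tested genes with a symbol, Shf and Ccs had the profiles nearest to Sod1 over the 6 libraries, with root mean square differences of 0.08 and 0.09 in centred log2 CPM. The promoters of Sod1 and Ccs are shown because Ccs is the chaperone of Sod1 and both transcripts moved together. That of Shf, the nearest profile, is not shown. In both promoters capitals mark matches to the core of the metal response element (TGCACNC or TGCGCNC, either strand). Both are the 200 bases before the RefSeq start on build GRCr8, Sod1 at chr11:42942623-42942822 on the plus strand and Ccs at chr1:211564261-211564460 on the minus strand.
Sod1: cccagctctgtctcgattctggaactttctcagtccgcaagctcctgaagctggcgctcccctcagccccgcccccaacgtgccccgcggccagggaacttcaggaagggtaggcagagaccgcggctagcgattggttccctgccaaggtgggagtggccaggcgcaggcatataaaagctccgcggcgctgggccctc
Ccs: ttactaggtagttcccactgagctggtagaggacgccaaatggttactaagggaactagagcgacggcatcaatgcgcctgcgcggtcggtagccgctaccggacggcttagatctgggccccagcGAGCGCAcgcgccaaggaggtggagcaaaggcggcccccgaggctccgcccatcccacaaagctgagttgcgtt
The Ccs stretch holds 1 match, at position -74 from the start, and the Sod1 stretch holds none. Over promoters from 250 bases before to 50 after the start, 24.2% of 33469 RefSeq promoter entries held such a match. Of the 8 members with an entry, Prdx4 was the 1 that did.

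The other dismutases did not pass. Sod2 (ENSRNOG00000019048), the manganese enzyme of the mitochondrial matrix, had 254, 332 and 310.2 CPM in GZM 1, 2 and 3, against 196, 199 and 263 CPM in GM 1, 2 and 3. The groups overlapped, since GM 3 exceeded GZM 1. Its log2 fold change was 0.44 ± 0.21 SE (edgeR adjusted p = 0.114), and -0.37 with library totals (edgeR adjusted p = 0.111). Without GM 3 it passed as higher, at 0.64 (edgeR adjusted p = 0.0221), and it passed also without both GM 3 and GZM 1. Sod3 (ENSRNOG00000003869), the secreted copper and zinc enzyme that binds the matrix around cells, was scarce, with 17.8, 10.9 and 8.09 CPM in GZM against 7.72, 7.06 and 7.04 CPM in GM. GZM 1 held by far the highest level, although all 3 GZM libraries lay above the GM libraries. Its log2 fold change was 0.75 ± 0.31 SE (edgeR adjusted p = 0.0803), passing without GZM 3 (0.99, edgeR adjusted p = 0.0433), and -0.10 with library totals (edgeR adjusted p = 0.791).

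Of the glutathione peroxidases Gpx1 passed and Gpx3 did not. Gpx1 (ENSRNOG00000048812), the selenium-dependent peroxidase of cytosol and mitochondria, had 438, 799.6 and 642 CPM in GZM 1, 2 and 3, against 279.9, 198 and 337 CPM in GM 1, 2 and 3. The groups did not overlap, but GZM 1 stood closer to GM 3 than to GZM 2. Mean levels were 627 ± 181 CPM in GZM against 272 ± 69.8 CPM in GM (SD, n = 3 each). Gpx1 rose 2.30-fold, or by 1.20 ± 0.30 (SE) on the log2 scale (edgeR adjusted p = 0.0146). The call was lost without GZM 2 (1.00, edgeR adjusted p = 0.061), without GM 1 (1.22, edgeR adjusted p = 0.0525) and with library totals (0.38, edgeR adjusted p = 0.229).

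Gpx3 (ENSRNOG00000052564), the secreted plasma peroxidase, which in the body is made mainly by kidney, had 141, 86.3 and 58.2 CPM in GZM 1, 2 and 3. The GM libraries held 188, 72.4 and 142 CPM in GM 1, 2 and 3. The spread within each group was as wide as the gap between them, with GM 2 below GZM 1 and GZM 2, and no difference passed (-0.50 ± 0.41 SE, edgeR adjusted p = 0.351). With library totals Gpx3 fell by 1.34 on the log2 scale (edgeR adjusted p = 0.0174). A list of 12 stellate and smooth muscle cell genes, 11 of them tested, varied in a similar order, at 0.23, -0.63 and -0.88 in GZM 1, 2 and 3 and 1.00, -0.09 and 0.38 in GM 1, 2 and 3 as mean centred log2 CPM. Its genes took 0.149% to 0.321% of counts in GZM and 0.525% to 1.42% in GM, with 2 of 11 lower and 1 higher and none at 0. With library totals 10 of the 11 were lower and none higher, beside 59.5% lower over all tested genes. The part of these cells in the Gpx3 levels was not tested.

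Among peroxiredoxins, the thiol peroxidases recharged by thioredoxin or, for Prdx6, by glutathione, 3 rose and 2 did not pass on the TMM scale. Prdx1 (ENSRNOG00000017194), the main cytosolic form, had 909, 760.3 and 650.2 CPM in GZM 1, 2 and 3, against 404, 463 and 563 CPM in GM 1, 2 and 3. Prdx4 (ENSRNOG00000003763), the form of the endoplasmic reticulum, had 137, 115 and 92.3 CPM in GZM against 65.1, 69.9 and 77.4 CPM in GM. Both genes were highest in GZM 1 and lowest in GM 1, and neither overlapped between groups. Prdx6 (ENSRNOG00000002896), a 1-cysteine enzyme that also acts on phospholipids, had 271, 253 and 217 CPM in GZM 1, 2 and 3, against 126, 163 and 145 CPM in GM 1, 2 and 3. Again no GZM library reached down to the GM range.

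The log2 fold changes were 0.70 ± 0.24 SE for Prdx1 (edgeR adjusted p = 0.0436), 0.69 ± 0.19 SE for Prdx4 (edgeR adjusted p = 0.0188) and 0.77 ± 0.18 SE for Prdx6 (edgeR adjusted p = 0.0122). With library totals none of these passed, and their values turned to -0.13, -0.14 and -0.069. The Prdx1 call was lost on leaving out GZM 1, GZM 2, GZM 3, GM 1 or GM 2 (edgeR adjusted p from 0.0674 to 0.162), with the replicate block (0.124) and with no low-count filter (0.065), and held without GM 3. The Prdx4 call was lost without GZM 1 (edgeR adjusted p = 0.0554), GZM 2 (0.0646) or GM 1 (0.0752), and with the replicate block (0.0539). The Prdx6 call was lost without GZM 2 (edgeR adjusted p = 0.0531) or GM 1 (0.0585).

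Prdx1 and Prdx4 had the closest profiles of any pair of members, at a root mean square difference of 0.07 in centred log2 CPM over 6 libraries. Their promoters are given for that reason, with capitals for matches to the antioxidant response element core (TGACNNNGC, either strand) or the metal response element core given above. They are the 200 bases before the RefSeq start on build GRCr8, Prdx1 at chr5:135383706-135383905 and Prdx4 at chrX:43878533-43878732, both on the plus strand.
Prdx1: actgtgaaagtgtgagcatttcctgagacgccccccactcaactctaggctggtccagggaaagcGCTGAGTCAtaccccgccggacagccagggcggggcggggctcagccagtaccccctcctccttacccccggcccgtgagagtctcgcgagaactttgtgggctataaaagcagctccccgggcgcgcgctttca
Prdx4: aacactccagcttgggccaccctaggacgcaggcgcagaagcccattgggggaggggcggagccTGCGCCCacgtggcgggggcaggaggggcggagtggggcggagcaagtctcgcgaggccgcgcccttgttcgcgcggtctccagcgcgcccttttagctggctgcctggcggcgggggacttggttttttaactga
The capitals in Prdx1 are an antioxidant element match at position -135, and those in Prdx4 a metal element match at -136. Prdx4 also held an antioxidant element match at position 20 after the start, outside the stretch shown, and Sod2 held one at -35. In all, 3 of the 8 members with an entry held the antioxidant core, against 12.1% of 33469 entries. These are matches of letters and are no evidence of binding. Sod3 and Prdx6 had no entry.

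Prdx2 (ENSRNOG00000003520), a cytosolic form abundant in red blood cells, was lower in every GZM library than in any GM library. It had 113, 113 and 95.4 CPM in GZM 1, 2 and 3, against 138, 195 and 122 CPM in GM 1, 2 and 3. The gap was narrow, as GM 3 came close to GZM 1 and GZM 2. Its log2 fold change of -0.50 ± 0.21 SE did not pass (edgeR adjusted p = 0.0918). Without GM 3 it passed as lower (-0.59, edgeR adjusted p = 0.0323), and with library totals Prdx2 fell by 1.36 (edgeR adjusted p = 0.00236). Of 10 erythroid genes listed, 8 were tested, 2 rose and none fell, against 1 rise and no fall with library totals. Their summed share was 0.0203% to 0.039% of counts in GZM and 0.00635% to 0.0239% in GM, with Gata1 at 0 in every library, and the part of red cells in the Prdx2 levels was not tested.

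Prdx3 (ENSRNOG00000010958), the mitochondrial form, had 99.4, 109.7 and 95.5 CPM in GZM 1, 2 and 3, against 92.7, 152 and 91.2 CPM in GM 1, 2 and 3. GM 2 alone stood high, and the other 5 libraries lay close together. The log2 fold change was -0.14 ± 0.23 SE (edgeR adjusted p = 0.638), turned to 0.14 without GM 2, and was -0.99 with library totals (edgeR adjusted p = 0.0103). GM 2 was also the GM library with most Prdx2 and the highest level of the cell division list, 1.71 against 1.26 in GM 1 and 0.25 in GM 3, where the GZM libraries lay between -1.17 and -1.01. All 10 genes of that list were tested and fell, and they took 0.0139% to 0.0166% of counts in GZM and 0.0597% to 0.191% in GM. The part of dividing cells in the levels of Prdx2 and Prdx3 was not tested.

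**Figure D2:**
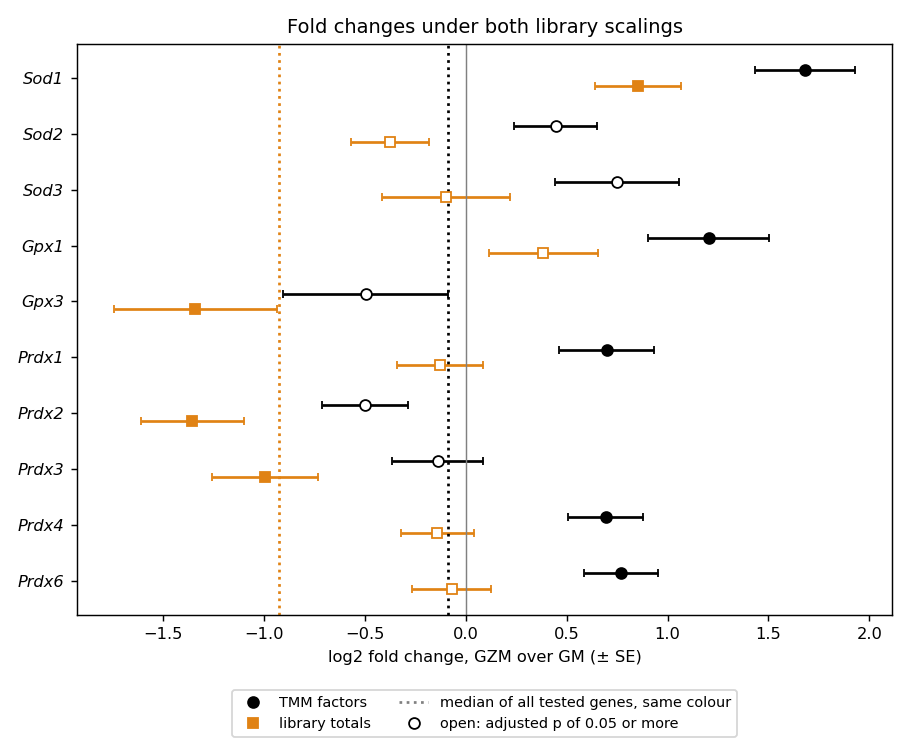
Log2 fold change (GZM over GM) ± SE of each of the 10 genes with TMM factors (circles) and with library totals (squares), filled where the adjusted p is under 0.05. Dotted lines mark the median of all tested genes on each scale, -0.09 and -0.92. Sod1 is the 1 gene filled to the right of 0 on both scales, and no gene is filled to the left of 0 on both.

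Since the scaling decides so many of these calls, pairs of members were also compared within each library, where scaling cancels. The log2 ratio of Sod2 to Sod1, in counts per kilobase, was -2.85, -2.46 and -2.06 in GZM 1, 2 and 3, against -1.03, -1.38 and -1.24 in GM 1, 2 and 3. Mitochondrial dismutase transcript thus stood at 0.182 of the cytosolic one in GZM and at 0.43 in GM, a ratio 2.36-fold lower in GZM, with no overlap. The Sod3 to Sod1 ratio was 2.01-fold lower and the Gpx3 to Gpx1 ratio 3.20-fold lower in GZM.

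Within the peroxiredoxins the Prdx2 to Prdx1 ratio was -2.98, -2.72 and -2.75 in GZM 1, 2 and 3 on the log2 scale, against -1.53, -1.23 and -2.19 in GM 1, 2 and 3, or 2.25-fold lower in GZM. The Prdx3 to Prdx1 ratio was 1.74-fold lower in GZM. All 5 of these ratios kept the groups apart and gave the smallest p that 3 against 3 libraries allow (exact two-sided permutation test, p = 0.1, and 0.14 adjusted over 7 ratios), which cannot pass 0.05. The Prdx4 to Prdx1 ratio averaged -2.79 ± 0.05 in GZM and -2.77 ± 0.11 in GM on the log2 scale (± SD over n = 3 libraries each, exact permutation p = 0.8). The Prdx6 to Prdx1 ratio averaged -2.83 ± 0.09 in GZM and -2.91 ± 0.22 in GM (exact permutation p = 0.7). In both of these ratios the groups overlapped.

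**Figure D3:**
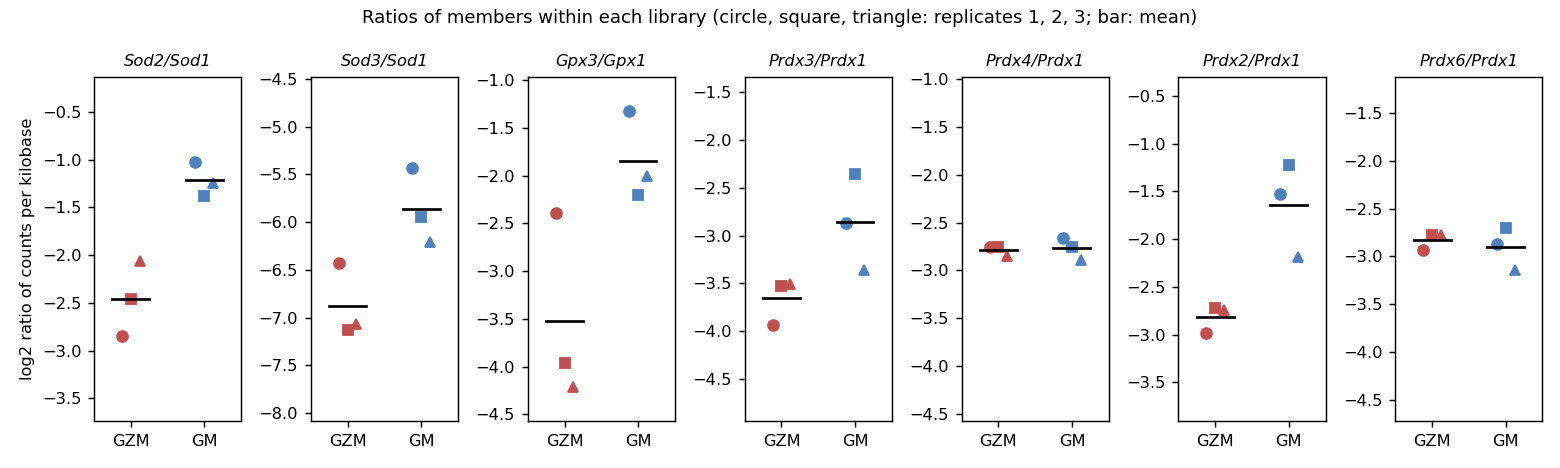
Log2 ratio of counts per kilobase of member pairs within each library, GZM left of GM, with replicate 1, 2 and 3 as circle, square and triangle and the group mean as a bar. All 7 axes cover the same length in log2 units but start at different values. The groups do not overlap for Sod2/Sod1, Sod3/Sod1, Gpx3/Gpx1, Prdx3/Prdx1 and Prdx2/Prdx1, and overlap for Prdx4/Prdx1 and Prdx6/Prdx1.

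Levels of different genes can be compared per length, in the deposited fragments per kilobase and 1e6 counts (FPKM), which are scaled to library totals. In GZM, Prdx1 (649.7 ± 95.5 FPKM), Sod1 (595 ± 86.5 FPKM) and Gpx1 (536 ± 147 FPKM) formed the top group, and their libraries overlapped. A middle group of Sod2, Prdx4, Prdx2 and Prdx6 ran from 109 down to 90.9 FPKM, neighbours overlapping. Prdx3 (51.2 FPKM) and Gpx3 (48.2 FPKM) followed, and Sod3 was last at 5.28 FPKM.

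In GM, Prdx1 led alone at 709 ± 52.9 FPKM. Gpx1 (411 ± 76.6 FPKM), Sod1 (329 ± 45.9 FPKM) and Prdx2 (234 ± 76.8 FPKM) came next, each overlapping its neighbour. Sod2, Gpx3, Prdx4, Prdx3 and Prdx6 ran from 141 down to 95.3 FPKM with overlapping neighbours, and Sod3 was again last, at 5.64 FPKM. Within each library Prdx2 stood below Sod1. The gap was smaller in GM, with 225, 316 and 163 FPKM of Prdx2 against 276, 356 and 354 FPKM of Sod1 in GM 1, 2 and 3. In GZM 1, 2 and 3 it was 96.0, 92.5 and 86.3 FPKM of Prdx2 against 657, 632 and 496 FPKM of Sod1.

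The summed FPKM of the 10 genes was 2315, 2384 and 2115 in GZM 1, 2 and 3, against 2210.0, 2313 and 2234 in GM 1, 2 and 3, so the sums overlapped. Sod1 supplied 28.4%, 26.5% and 23.5% of the sum in GZM, against 12.5%, 15.4% and 15.9% in GM. Prdx2 supplied 4.15%, 3.88% and 4.08% in GZM, against 10.2%, 13.6% and 7.30% in GM. The 3 dismutases together made up 31.2% ± 1.73 in GZM and 21.1% ± 1.99 in GM, the 5 peroxiredoxins 43.0% ± 4.61 in GZM and 55.2% ± 5.45 in GM, and the 2 glutathione peroxidases 25.8% ± 5.75 in GZM and 23.7% ± 6.15 in GM (± SD over n = 3 libraries each). The last pair overlapped between groups.

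**Figure D4:**
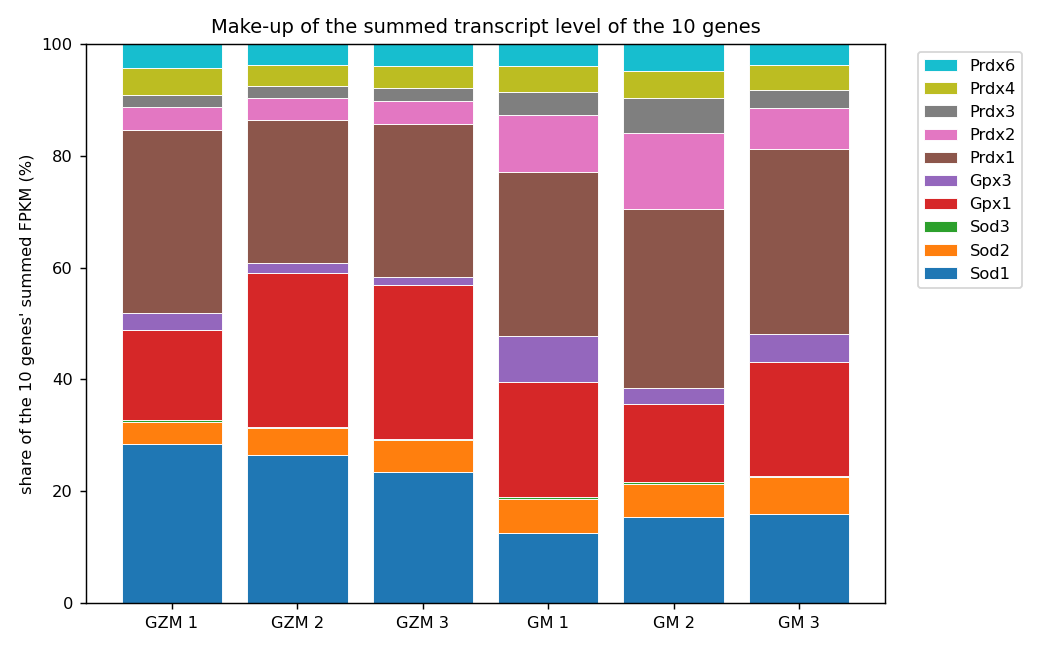
Share of each gene in the summed deposited FPKM of the 10 genes, in percent, 1 bar per library with GZM left of GM. Sod1 takes 23.5% to 28.4% in GZM and 12.5% to 15.9% in GM, and Prdx2 3.88% to 4.15% in GZM and 7.30% to 13.6% in GM.

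By profile over the 6 libraries, the tested symbol-named genes nearest to the other members were Frs3 and Dapk3 for Sod2, Zfp1 and Itgb1bp2 for Sod3, Ndfip2 and Gem for Gpx1, and Itga8 and Lgi2 for Gpx3. For peroxiredoxins they were Idh3b and Atraid for Prdx1, Lsm4 and Rsl24d1 for Prdx2, Map3k12 and Prelid3b for Prdx3, Psmf1 and Cmc4 for Prdx4, and Maip1 and Tpmt for Prdx6. Root mean square differences in centred log2 CPM ran from 0.03 for Psmf1 and Prdx4 to 0.14 for Itgb1bp2 and Sod3. The 6 points fall into 2 groups, so such likeness is a description of these libraries.

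Catalase and the remaining family genes moved in both directions. Of 9 listed, 7 were tested, 3 rose and 1 fell, with a median log2 fold change of 0.80 against -0.09 over all tested genes. With library totals 2 of the 7 rose and 3 fell, with a median of -0.03 against -0.92 over all tested genes. For every gene list here, the shares over all tested genes were 22.2% higher and 21.7% lower with TMM factors. With library totals they were 9.2% higher and 59.5% lower. Cat, the peroxisomal enzyme that splits hydrogen peroxide, had 2783, 2190.2 and 1689 CPM in GZM 1, 2 and 3, against 347, 270.3 and 587 CPM in GM 1, 2 and 3. It rose 5.53-fold (log2 fold change 2.47 ± 0.37 SE, edgeR adjusted p = 0.003), and by 1.67 with library totals (edgeR adjusted p = 0.00208). Like Sod1 and Ccs, it passed in all 12 alternatives. The hepatocyte list had a median log2 fold change of 2.50, or 1.74 with library totals. The part of hepatocyte content in the Cat rise was not tested.

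Gpx8, an enzyme of the endoplasmic reticulum, fell by 1.32 (edgeR adjusted p = 0.0068), to 20.2, 13.2 and 11.8 CPM in GZM against 45.3, 39.8 and 27.8 CPM in GM. Gpx4, which reduces lipid peroxides, stood at 9.90 to 14.2 CPM in GZM and 5.21 to 7.36 CPM in GM. It rose by 0.80 (edgeR adjusted p = 0.037), a call lost without GZM 1, GZM 2, GZM 3 or GM 1 (edgeR adjusted p from 0.0674 to 0.117), without GM 3 and GZM 1 together (0.0654) and with the replicate block (0.088). With library totals it stood at -0.031. Gpx5 and Gpx6 had 0 counts in every library.

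The thioredoxin list holds the electron donors of the peroxiredoxins and the sestrins. Of its 9 tested genes 1 rose and 1 fell (median 0.28, or -0.53 with library totals, where none rose and 5 fell). Falls took no larger share here than over all tested genes, 21.7% with TMM factors and 59.5% with library totals. Txn2, the mitochondrial thioredoxin, rose by 1.06 (edgeR adjusted p = 0.0038; 0.23 and not passing with library totals). Txn1, the cytosolic one, had a log2 fold change of -0.57 (edgeR adjusted p = 0.0986) and fell by 1.39 with library totals. Sesn3, a stress-responsive sestrin, fell by 1.18 (edgeR adjusted p = 0.00969), and Sesn2 did not pass (0.31, edgeR adjusted p = 0.192). Sesn2 did pass as lower with library totals (-0.52, edgeR adjusted p = 0.0393).

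Of 11 tested genes of glutathione supply 6 rose and 1 fell (median 0.60, or -0.25 with library totals, where 3 rose and 4 fell). The falls took a smaller share than over all tested genes, 21.7% with TMM factors and 59.5% with library totals. Slc7a11, which imports cystine for glutathione synthesis, fell 8.19-fold (log2 fold change -3.03 ± 0.38 SE, edgeR adjusted p = 0.00229), with 4.81, 3.87 and 3.77 CPM in GZM 1, 2 and 3, against 19.8, 52.8 and 29.1 CPM in GM 1, 2 and 3. Gclm, the modifier subunit of the enzyme that starts glutathione synthesis, rose by 1.42 (edgeR adjusted p = 0.0024), the gamma-glutamylcyclotransferase gene Ggct by 1.57 (edgeR adjusted p = 0.00252) and the mitochondrial glutaredoxin gene Glrx5 by 1.31 (edgeR adjusted p = 0.00253). Slc7a11 thus moved against the other named genes of this list.

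Gpx1 and Gpx3 carry selenocysteine, and 5 of 8 genes of selenoprotein synthesis rose and none fell (median 0.92), with 3 higher when GM 1 was left out. With library totals 1 rose and 3 fell (median 0.10). The selenocysteine lyase gene Scly rose by 1.60 (edgeR adjusted p = 0.00185), Sepsecs, which makes the selenocysteine on its tRNA, by 1.13 (edgeR adjusted p = 0.00269), and the elongation factor gene Eefsec by 0.73 (edgeR adjusted p = 0.0103; -0.10 with library totals). Selenop, the selenium carrier secreted by hepatocytes, rose by 1.46 (edgeR adjusted p = 0.0154), a call lost without GM 1 (edgeR adjusted p = 0.0637). Sepsecs and Selenop did not pass with library totals (0.30 and 0.67, edgeR adjusted p = 0.125 and 0.0833).

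Genes of enzymes that form hydrogen peroxide as a by-product rose widely. In that list 11 of 14 tested genes rose and none fell. The median log2 change was 2.15 with TMM factors and 1.38 with library totals, where 10 rose and 1 fell. Without GM 2 it also held 1 gene that fell. The glycolate oxidase gene Hao1 rose by 2.71, the monoamine oxidase gene Maob by 2.39 and the scarce aspartate oxidase gene Ddo by 2.92 (edgeR adjusted p = 0.0024, 0.00294 and 0.00289). These 3 genes encode enzymes of hepatocyte peroxisomes or mitochondria. The list of 14 as a whole stood at 1.24, 0.88 and 0.73 in GZM 1, 2 and 3 and -1.11, -1.54 and -0.20 in GM 1, 2 and 3. The hepatocyte list stood at 1.39, 1.40 and 1.11 in GZM and at -1.53, -2.10 and -0.26 in GM. Both lists split the groups and ordered the GM libraries alike, but within GZM their orders differed. The part of hepatocyte content in these rises was not tested.

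Subunits of the phagocyte NADPH oxidase, which makes superoxide on purpose, were lower or did not pass. Of 9 tested genes in the NADPH oxidase list 2 fell and 1 rose (median -0.46). The falls were near the 21.7% lower over all tested genes, whose median was -0.09. With library totals 6 fell and none rose (median -1.27), beside 59.5% lower and a median of -0.92 over all tested genes. Cybb, the catalytic subunit, fell by 1.25 (edgeR adjusted p = 0.00662), to 241, 192 and 247 CPM in GZM against 517, 407 and 689.7 CPM in GM, and its partner Ncf4 fell by 0.88 (edgeR adjusted p = 0.00574). Ncf1 did not pass (-0.69, edgeR adjusted p = 0.0588) but did without GM 2 (-0.90, edgeR adjusted p = 0.0205). It also passed as lower with no low-count filter (-0.71, edgeR adjusted p = 0.0484) and with library totals (-1.49, edgeR adjusted p = 0.00142). Nox4, an oxidase of liver and stromal cells, rose by 1.94 (edgeR adjusted p = 0.0453), with 18.4, 5.00 and 5.34 CPM in GZM against 2.31, 1.02 and 4.16 CPM in GM. GZM 1 stood far above the other libraries for Nox4, and without it the log2 fold change was 1.06, while without GM 3 it was 2.55. The call was lost without GZM 1, GZM 2, GM 1 or GM 2 (edgeR adjusted p from 0.0513 to 0.172) and with library totals (1.15, edgeR adjusted p = 0.123).

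Macrophage markers moved in both directions. Of 12 listed, 11 were tested, 5 fell, 2 rose and 4 did not pass (median -0.57). The genes of the list took 0.154% to 0.231% of counts in GZM and 0.534% to 0.814% in GM, with none at 0. Among 8 tested neutrophil genes 1 fell, with 0.00434% to 0.00984% of counts in GZM and 0.0111% to 0.0204% in GM, with Ltf at 0 in every GZM library. Their part in the Cybb and Ncf4 levels was not tested. Of 10 tested endothelial genes 5 rose and 1 fell, and of 6 cholangiocyte genes 1 rose and none fell. With library totals 1 macrophage gene rose and 8 fell, and 2 neutrophil genes fell and none rose. On that scale no endothelial or cholangiocyte gene rose, while 2 endothelial genes and 1 cholangiocyte gene fell, beside 59.5% lower over all tested genes. Among heme peroxidases, Pxdn, which cross-links collagen IV, fell by 1.36 (edgeR adjusted p = 0.0142; lost without GZM 2 or GZM 3, 0.0532 and 0.0543), and the neutrophil enzyme Mpo, under 1 CPM in every library, did not pass (-1.20, edgeR adjusted p = 0.0769). Both fell with library totals, Pxdn by 2.22 (edgeR adjusted p = 0.00157) and Mpo by 1.99 (edgeR adjusted p = 0.00642).

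**Figure D5:**
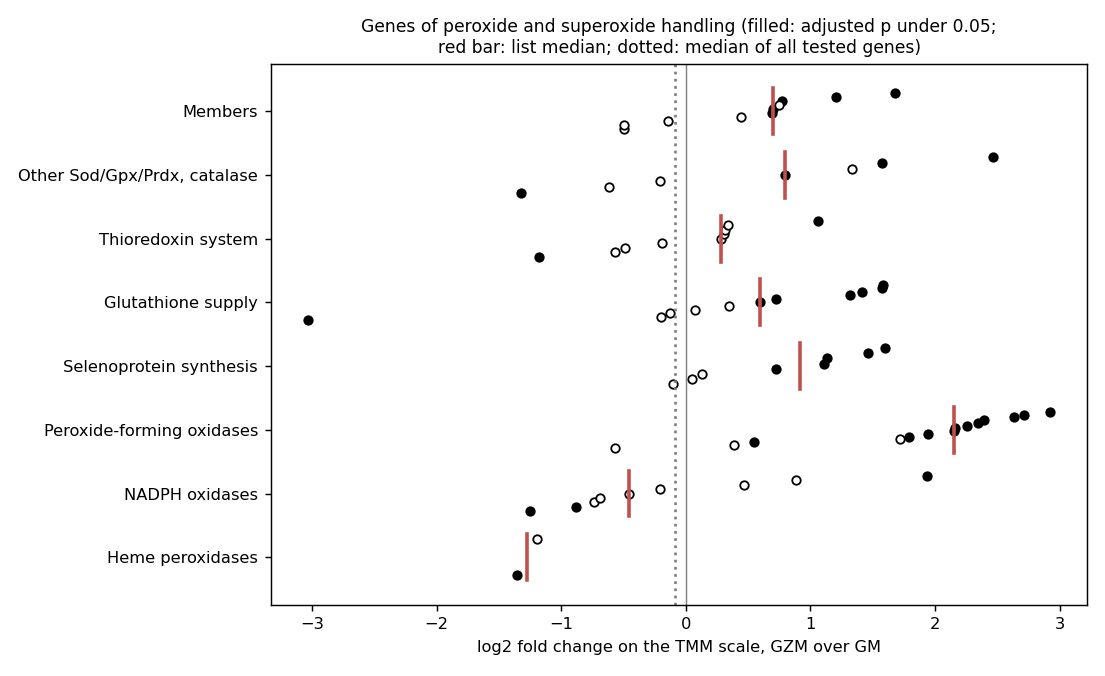
Log2 fold change (GZM over GM, TMM scale) of the 10 genes and of the tested genes of 7 related lists, 1 point per gene, filled where the adjusted p is under 0.05. Red bars are list medians and the dotted line is the median of all tested genes, -0.09. Peroxide-forming oxidases have a median of 2.15, the 10 genes 0.70 and the NADPH oxidase list -0.46.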

How the data were processed

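RNA was extracted with TRIzol, enriched for poly(A) transcripts and made into strand-specific paired-end libraries, per the labels' protocols. Per the file headers, every gene has exon lengths and, for each sample, 1 column of counts and 1 of FPKM. Counts as deposited are whole and without normalization. The authors' deposited FPKM values are those counts per kilobase of exon and 1e6 summed counts: recomputing all 195738 gave values within 0.01. Aligner, counter and the use of strand in counting: not given in the sources used here. The build is mRatBN 7.2 per the submitters' processing notes, but table positions reach 282724300 on chromosome 1, past that build, so table coordinates carry no build here. Columns for GZM spell the letters ZGM. The table lists 1 gene overlapping a member, on the strand opposite Prdx6, with 34 counts in all. Reads shared with processed pseudogenes are uncertain.

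Computed here: edgeR 4.0.16 (R 4.3.3) quasi-likelihood test on counts, TMM factors, default low-count filter, no covariate, all 6 libraries, Benjamini-Hochberg adjustment at 0.05 over 14298 genes. SE is the one implied by the quasi-F value. The script was tested on simulated data. The 15 gene lists hold 156 entries, 6 of them not matched in the table. Centred levels use log2 CPM with a prior count of 2, except those of single members, which use none. Named genes are the members, up to 4 genes of smallest p per related list, and the 2 nearest profiles per member. A gene that this rule names is not reported here. Members and lists were chosen with earlier results of these data known. Alternatives were library totals, median-of-ratios factors, no filter, a replicate block, DESeq2 1.42.0, each library left out, and GM 3 and GZM 1 left out together. Promoter sequences are from RefSeq (GRCr8, with 8 of 10 members matched). Figures used matplotlib 3.10.9.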

Additional observations from a re-analysis of the deposited data

How the results depend on the processing

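Median-of-ratios factors and DESeq2 kept all 5 rises among the members, beside 3237 of 14298 and 3432 of 16907 tested genes higher. No low-count filter kept 4, beside 3013 of 21345. With library totals 1 member rose and 3 fell, 1315 genes rose and 8513 fell, and Sod2 (-0.37), Sod3 (-0.10), Prdx1 (-0.13), Prdx4 (-0.14), Prdx6 (-0.069), Gpx4 (-0.031), Sesn2 (-0.52) and Eefsec (-0.10) reversed, on a scale whose median over all tested genes is -0.92. The replicate block left 3 rises, yet numbers do not pair the libraries (correlations of deviations -0.14, 0.16 and -0.27), and best matches by number held for 1 of 3. Treating equal numbers as pairs, the 5 separated ratios gave an exact sign-flip p of 0.25, the smallest 3 pairs allow. Leaving out 1 library gave 1 to 6 members higher, 0 to 1 lower, 2112 to 3592 genes higher and 1665 to 3432 lower. Prdx3 ran from -0.26 to 0.14, positive without GM 2. Without GM 3 and GZM 1 together 6 members rose and 1 fell, beside 3645 genes higher and 3353 lower of 14593. Ratios kept their direction on leaving out any 1 library, Sod2 to Sod1 between -1.44 and -1.04, except Prdx4 to Prdx1 (-0.078 to 0.036, with 0.011 without GZM 3 and 0.036 without GM 1) and Prdx6 to Prdx1 (-0.044 to 0.18, with -0.044 without GM 3). Of 120 member values over 12 alternatives 90 kept direction and side of the threshold. Among the 10 members depth limits Sod3 most, with 103 to 177 counts in GZM libraries and 137 to 166 in GM libraries.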

Other observations

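The table holds 3 genes described as peroxiredoxin-like, named after their values were seen. On the TMM scale all 3 rose in GZM with no overlap between groups. Among all tested genes 22.2% rose by the same test, and 28.4% were higher with no overlap. Prxl2a had 93.4, 114 and 93.2 CPM in GZM 1, 2 and 3, against 17.5, 12.8 and 35.8 CPM in GM 1, 2 and 3 (log2 fold change 2.19 ± 0.36 SE, edgeR adjusted p = 0.0037). Prxl2b rose by 1.85 (edgeR adjusted p = 0.00598) and Prxl2c by 1.83 (edgeR adjusted p = 0.00253). Each of these log2 fold changes is above that of every peroxiredoxin among the members, the highest of which was Prdx6 at 0.77, a difference that was not tested.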
